A study of Homo sapiens with 6 samples.

Results

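The spliceosome is the RNA-protein machine that removes introns from pre-mRNA, and the genes described here are 54 of its core components, taken by name from a count table of 36601 gene rows. The 54 names cover the Sm and LSm rings, the proteins of the U1, U2, U4/U6 and U5 small nuclear ribonucleoproteins (snRNPs), the PRP19 complex and the factors that drive the catalytic steps. All 54 were found once in the table and all passed the filter on low counts. Their RNA was compared between 2 groups of 3 libraries from U2OS cells, a human osteosarcoma line of mesenchymal origin. Every cell in both groups carried TDP-43-mNLS-Clover, a fluorescent TDP-43 with a mutated nuclear import signal, switched on with doxycycline. The aggregates group had received 50 nM fibril seeds of the TDP-43 low-complexity domain with a lipofectamine reagent, and after 48 hours the cells whose Clover signal had gathered into aggregates were isolated by image-based sorting. The diffuse group was mock transfected with protein storage buffer and sorted for cells with diffuse Clover. The transfections were done in triplicate, the series describes them as independent biological replicates, and all libraries carry the same batch label. Seeding, sort gate and group coincide, so their contributions cannot be told apart, and the cells are 1 engineered line rather than neurons.

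As background, introns are recognised when U1 snRNP pairs with the 5′ splice site and SF1, U2AF and then U2 snRNP settle on the branch point and the 3′ splice site. The U4/U6.U5 tri-snRNP joins next, RNA helicases and the PRP19 complex rearrange the assembly into its catalytic form, and other helicases release the product and recycle the parts. TDP-43, the product of TARDBP, normally works in the nucleus, where it binds RNA and keeps many unwanted splice sites silent, and several spliceosome genes contain exons with early stop codons whose inclusion sends the mRNA to nonsense-mediated decay.

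Gene counts per library totalled 40279084 to 46863013, and the spliced reads over introns totalled 25341453 to 32020553. In the gene table TARDBP, with transgene and endogenous RNA not separated, had 2581 ± 42.5 CPM (reads scaled to a fixed library total) in aggregates libraries and 7440 ± 218 CPM in diffuse libraries (mean ± SD here and below, n = 3 libraries each), a log2 fold change of -1.53 (SE 0.04, edgeR quasi-likelihood adjusted p = 1.1e-52). The summed spliced reads of TARDBP gave a log2 difference of 0.48 that did not pass (edgeR adjusted p = 0.126). The 6 mesenchymal markers checked were expressed, with sums of 5810 to 6274 CPM in aggregates libraries and 8699 to 8971 CPM in diffuse libraries. The 3 endothelial markers summed to 1.47 to 2.22 CPM in aggregates libraries and 1.69 to 2.26 CPM in diffuse libraries. The 3 epithelial markers summed to 7.30 to 8.09 CPM in aggregates libraries and 7.92 to 8.45 CPM in diffuse libraries, and the 3 neuronal markers to 26.2 to 27.8 CPM in aggregates libraries and 55.1 to 56.8 CPM in diffuse libraries. The part of these marker differences in the results was not tested.

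Most core spliceosome genes were modestly higher in aggregate cells. By gene counts 40 of the 54 rose and 8 fell at an adjusted p under 0.05 (edgeR quasi-likelihood test, Benjamini-Hochberg over all 17839 genes tested). The background was wide, since 37.8% of all genes tested rose, 37.6% fell and 75.4% changed in either direction. Among the 9631 genes in the expression range of the members, 42.3% rose, 43.7% fell and 86.0% changed either way. Of the members 74.1% rose and 14.8% fell. The changes were small, with log2 fold changes between -0.80 and 0.79 and none past 2-fold in either direction. Their median log2 fold change was 0.18, against 0.01 over all genes tested, while the median size regardless of sign was 0.28, against 0.41 over all genes. Library values of aggregates and diffuse groups did not overlap for 48 of the 54 (88.9%). The share was 76.2% of all genes tested and 86.4% of the genes in that expression range. The summed level of the 54 genes was 7107, 7271 and 7212 CPM in the aggregates libraries, against 6215, 6083 and 6166 CPM in the diffuse libraries. These are bulk libraries, so a change in the share of cells that hold an RNA and a change in RNA per cell cannot be told apart.

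Fewer members passed a stricter test. Against a minimum fold of 1.2 (edgeR glmTreat), 19 members rose and 5 fell, which is 44.4% of the members beside 51.6% of all genes tested, with 25.1% of all genes higher and 26.5% lower. Removing trends with GC content and transcript length left 35 members higher and 9 lower, with a median log2 fold change of 0.17. Of all genes 13281 of 17435 changed in either direction under this correction, with a median of 0.02. The correction turned the sign of 8 members whose differences were within 0.19 on the log2 scale. Of the other members called by gene counts, 21 moved by over 1.5 times under this correction, 16 of them closer to 0, and their values are given with each role group. Across the 53 members other than U2AF1, the log2 fold change had a Pearson r of -0.33 and a Spearman rho of -0.35 with transcript length, beside -0.17 and -0.22 over all genes tested. Genes in these correlations share the same 6 libraries and are not independent replicates.

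**Figure D1:**
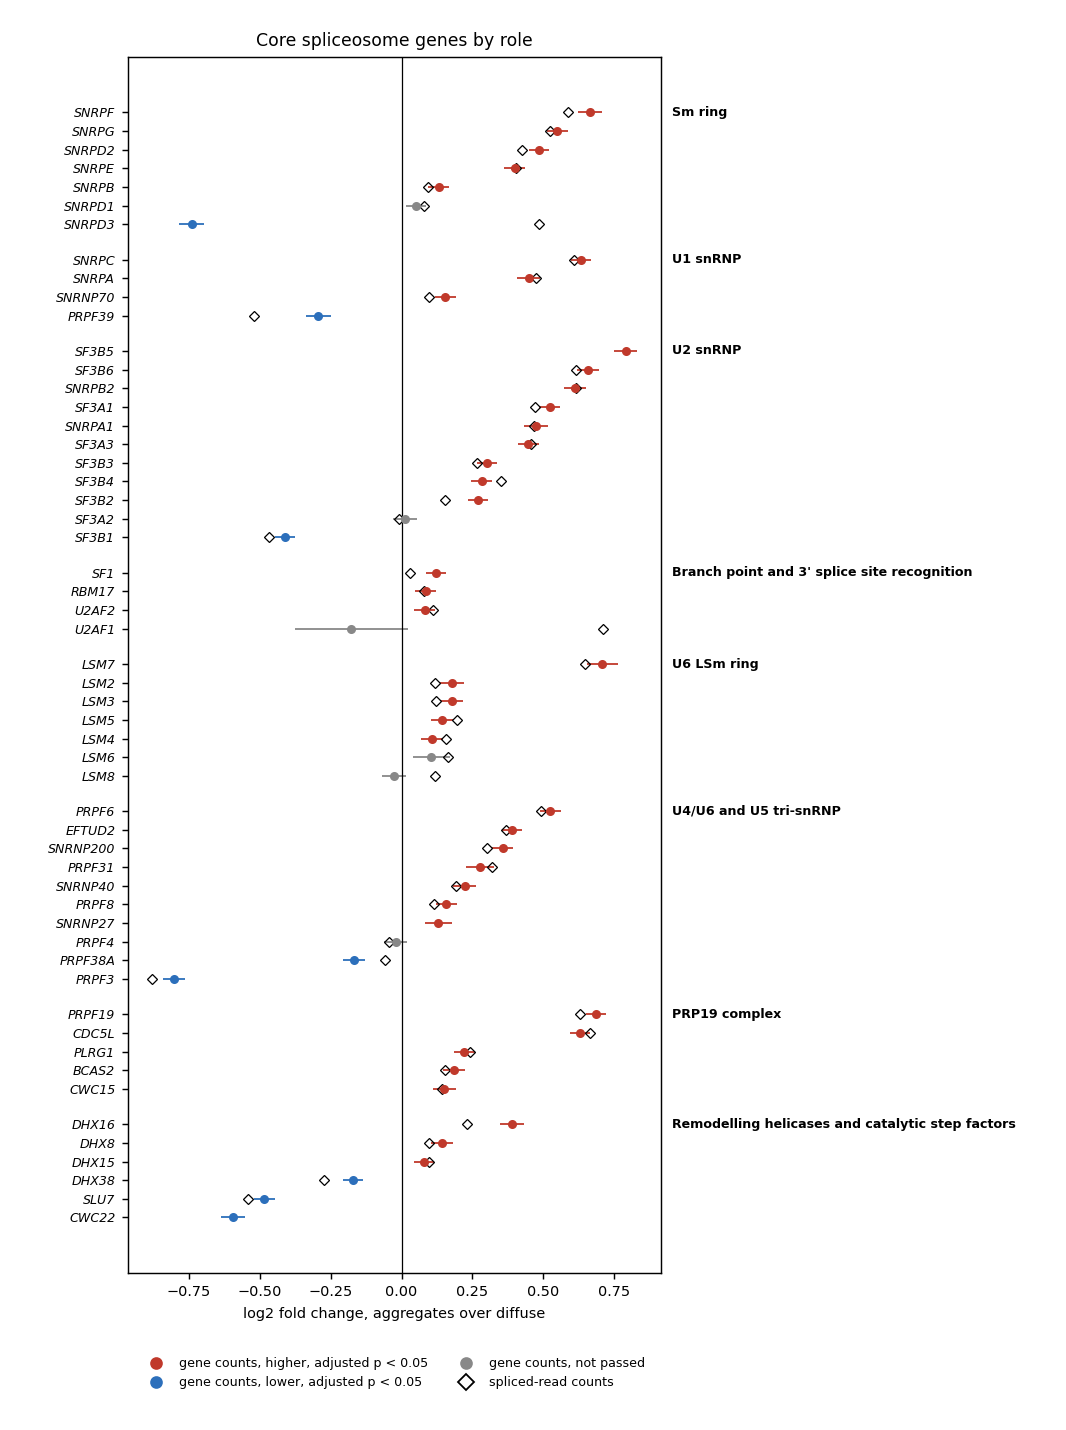
Log2 fold change of each core spliceosome gene, aggregates over diffuse, grouped by role; filled circles with SE bars are edgeR fits of gene counts and open diamonds are fits of spliced-read counts summed per gene. Most circles lie right of 0, PRPF3 (-0.80) and SF3B5 (0.79) mark the ends, and SNRPD3, U2AF1, LSM8 and SF3A2 have diamonds (0.49, 0.71, 0.12 and -0.01) on the other side of 0 from their circles; SNRPB, SF3A2, LSM2, LSM4, LSM8, PRPF38A, BCAS2 and CWC15 change sign with GC and length correction.

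Several of these genes also changed in which exons they used, and the exons concerned are shown because the splicing results below turn on them. The sequences are from GENCODE 29 transcripts on hg38, 5′ to 3′ on the strand of the gene. Capitals mark the exon, and for SF3B3 and SNRPB only its bases up to and including the first in-frame stop codon. Lower case marks the neighbouring exons of the spliced transcript. The exons lie at chr21:43101366-43101432 and chr21:43100453-43100519 (U2AF1, minus strand), chr16:70550650-70550678 (SF3B3, plus), chr15:101286214-101286293 (SNRPA1, minus), chr1:114576688-114576758 (BCAS2, minus), chr20:2467192-2467315 (SNRPB, minus) and chr6:34757912-34757954 (SNRPC, plus).
U2AF1 first 67-base exon: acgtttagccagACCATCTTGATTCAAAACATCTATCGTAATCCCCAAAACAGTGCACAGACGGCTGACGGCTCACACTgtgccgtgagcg
U2AF1 second 67-base exon: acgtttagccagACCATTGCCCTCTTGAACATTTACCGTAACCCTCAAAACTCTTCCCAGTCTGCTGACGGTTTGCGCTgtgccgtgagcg
SF3B3 29-base exon: gacacattgaagGTGGCTGGTGA
SNRPB 124-base exon: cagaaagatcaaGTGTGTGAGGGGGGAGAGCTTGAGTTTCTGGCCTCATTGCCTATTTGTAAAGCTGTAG
SNRPA1 80-base exon: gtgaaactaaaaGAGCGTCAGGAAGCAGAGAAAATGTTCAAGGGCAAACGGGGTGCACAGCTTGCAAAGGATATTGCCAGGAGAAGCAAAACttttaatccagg
BCAS2 71-base exon: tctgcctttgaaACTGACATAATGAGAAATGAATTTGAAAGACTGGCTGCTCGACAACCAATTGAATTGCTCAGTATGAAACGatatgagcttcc
SNRPC 43-base exon: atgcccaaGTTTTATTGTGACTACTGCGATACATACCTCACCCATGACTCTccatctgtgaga

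The 2 exons of U2AF1 are alternatives for one another, have the same length and share 44 of 67 bases (65.7%), with the same flanks. The SF3B3 exon meets its stop codon TGA at exon base 11 and the SNRPB exon meets TAG at exon base 58, and both exons are annotated in nonsense-mediated decay transcripts. None of the 80-base, 71-base and 43-base exons has a length divisible by 3, so leaving any of them out shifts the reading frame of the transcript shown. The intron that skips the SNRPC exon, chr6:34757552-34762594, is nonetheless annotated in a protein-coding transcript. In SNRPC the exon is preceded by 8 coding bases that begin with the start codon.

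The Sm proteins form the ring on which each Sm-class snRNP is built. Of the 7 Sm ring genes 5 rose and 1 fell by gene counts, with a median log2 fold change of 0.40, though SNRPB turned to -0.10 with GC and length correction. SNRPF, which encodes SmF (chr12:95858928-95903828), had 62.4, 60.5 and 61.0 CPM in aggregates libraries, against 38.4, 36.0 and 41.5 CPM in diffuse libraries, the largest rise of the ring. Its log2 fold change was 0.67 (SE 0.04, edgeR adjusted p = 7.73e-26), and the groups did not overlap. SNRPG, SNRPD2 and SNRPE rose by 0.55, 0.48 and 0.40 on the log2 scale, and SNRPB by 0.13. SNRPG stood at 0.31, SNRPD2 at 0.21 and SNRPE at 0.12 with GC and length correction, all still passing. SNRPD1 averaged 112 ± 3.19 CPM in aggregates libraries and 108 ± 2.02 CPM in diffuse libraries and did not pass (log2 fold change 0.05, adjusted p = 0.202). With GC and length correction SNRPD1 passed, at 0.22.

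SNRPD3, which encodes SmD3 (chr22:24555503-24609980), was the exception by gene counts. It had 30.2, 28.5 and 29.4 CPM in aggregates libraries, against 48.6, 48.6 and 49.9 CPM in diffuse libraries, a log2 fold change of -0.74 (SE 0.04, edgeR adjusted p = 1.9e-28). The intron table gave the opposite. Its summed spliced reads stood at 250, 250 and 253 CPM of the intron table in aggregates libraries, against 183, 179 and 176 CPM in diffuse libraries, a log2 fold change of 0.49 (SE 0.04, edgeR adjusted p = 8.46e-13). Neither measure had overlapping groups. The intron chr22:24568177-24571915 alone held 12853 spliced reads over the 6 libraries, more than the 9973 reads that the gene table gives to the whole gene. Exons of SNRPD3 overlap those of GGT1 on the same strand and of GUCD1 on the other strand, and the part of these overlaps in the low gene count was not tested. By spliced reads all 7 Sm ring genes had positive log2 fold changes, and 6 rose, with SNRPD1 (0.08, edgeR adjusted p = 0.0997) not passing.

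**Figure D2:**
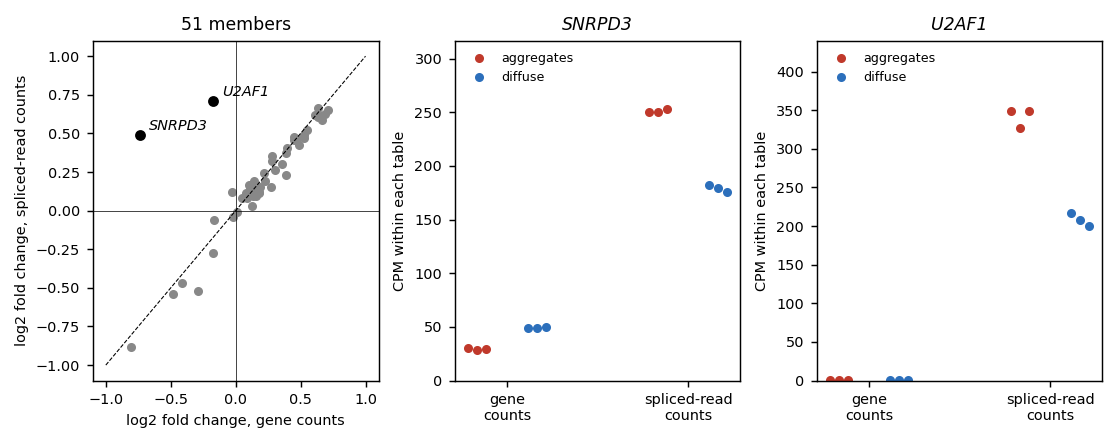
Left, log2 fold change by spliced-read counts against that by gene counts for the 51 core spliceosome genes with both, with the line of equality dashed; middle and right, SNRPD3 and U2AF1 in each library by both measures, each in CPM of its own table. By gene counts SNRPD3 was at 28.5 to 30.2 CPM in aggregates libraries and 48.6 to 49.9 CPM in diffuse libraries, with the order turned round by spliced reads. U2AF1 was close to 1 CPM by gene counts in both groups and by spliced reads at 326 to 349 CPM in aggregates libraries and 200 to 218 CPM in diffuse libraries.

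U1 snRNP defines the 5′ splice site. Of its 4 genes 3 rose and 1 fell, and their median log2 fold change was 0.30. SNRPC, whose U1-C protein steadies the pairing of U1 with the splice site (chr6:34757406-34773794), had 199, 213 and 199 CPM in aggregates libraries, against 135, 128 and 131 CPM in diffuse libraries. That is a log2 fold change of 0.63 (SE 0.04, edgeR adjusted p = 9.51e-30) with no overlap. SNRPA and SNRNP70, RNA-binding proteins of U1, rose by 0.45 and 0.15 on the log2 scale. The log2 fold changes of SNRPC, SNRPA and PRPF39 were 0.36, 0.28 and -0.18 with GC and length correction, and that of SNRNP70 was 0.10 by spliced reads. PRPF39, a factor associated with U1 snRNP (chr14:45084099-45116282), fell, with 44.0, 41.4 and 40.9 CPM in aggregates libraries, against 47.3, 54.1 and 53.3 CPM in diffuse libraries. Its log2 fold change was -0.29 (SE 0.04, edgeR adjusted p = 1.11e-08), and by spliced reads it was -0.52.

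U2 snRNP and its SF3A and SF3B subcomplexes hold the branch point, and of its 11 genes 9 rose and 1 fell by gene counts. The median log2 fold change was 0.45 by gene counts and 0.43 with GC and length correction, beside 0.40 and 0.21 in the Sm ring. By spliced reads it was 0.40 over 10 genes, without SF3B5, beside 0.43 in the Sm ring. SF3B5, a small SF3B subunit encoded by a gene without introns in GENCODE 29 (chr6:144094881-144095573), showed the largest rise of all 54 by gene counts, while with GC and length correction it stood at 0.51 and CDC5L was highest, at 0.84. SF3B5 had 94.8, 101 and 93.2 CPM in aggregates libraries, against 57.2, 54.5 and 55.5 CPM in diffuse libraries, a log2 fold change of 0.79 (SE 0.04, edgeR adjusted p = 4.87e-34). SF3B6, which touches the branch region, rose by 0.66, and SNRPB2 and SNRPA1, a pair of proteins that bind U2 RNA, by 0.61 and 0.48. SF3A1 and SF3A3 rose by 0.52 and 0.45, and the SF3B subunit genes SF3B3, SF3B4 and SF3B2 by 0.30, 0.28 and 0.27. With GC and length correction SF3B6 and SF3B4 were lower, at 0.37 and 0.15, and SF3B3 higher, at 0.52. By spliced reads SF3B2 rose by 0.15. The exception was SF3B1 (chr2:197389784-197435091), the large subunit that clamps the branch point duplex. It had 253, 244 and 258 CPM in aggregates libraries, against 326, 343 and 335 CPM in diffuse libraries, a log2 fold change of -0.41 (SE 0.04, edgeR adjusted p = 1.28e-18) with no overlap between the groups. The fall of SF3B1 was -0.21 with GC and length correction. SF3A2 did not pass (log2 fold change 0.01, adjusted p = 0.802), with 57.1 ± 2.60 CPM in aggregates libraries and 56.7 ± 2.08 CPM in diffuse libraries, and its sign turned with GC and length correction (-0.05) and by spliced reads (-0.01), without passing.

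Before U2 arrives, SF1 marks the branch point and the U2AF dimer reads the 3′ splice site. Of these 4 genes 3 rose by small amounts by gene counts, and the median log2 fold change was 0.08. SF1 (chr11:64764606-64778786) had 321, 347 and 329 CPM in aggregates libraries, against 306, 311 and 300 CPM in diffuse libraries. Its log2 fold change was 0.12 (SE 0.04, edgeR adjusted p = 0.0016), and by spliced reads it was 0.03 and did not pass (adjusted p = 0.566). U2AF2, which binds the polypyrimidine tract, and RBM17, a partner of several early factors, had log2 fold changes of 0.08 and 0.09, close to the threshold (edgeR adjusted p = 0.0336 and 0.0345). RBM17 did not pass by spliced reads (0.08, adjusted p = 0.35), and with GC and length correction it stood at 0.18, while U2AF2 did not pass there (0.06, adjusted p = 0.0586). U2AF2 no longer passed without aggregates replicate 1 or 2 or diffuse replicate 2 or 3 (adjusted p = 0.0646, 0.143, 0.0543 and 0.187). RBM17 no longer passed without aggregates replicate 3 or diffuse replicate 1 or 3 (adjusted p = 0.169, 0.171 and 0.0607).

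U2AF1, which reads the AG at the end of the intron, gave a near-empty gene count and a large spliced count. Its gene counts were 44, 43 and 28 reads in aggregates libraries, against 41, 44 and 38 in diffuse libraries, or 0.87 ± 0.18 CPM in aggregates libraries and 0.99 ± 0.09 CPM in diffuse libraries, and did not pass (log2 fold change -0.18, edgeR adjusted p = 0.423). Annotated introns of U2AF1 (chr21:43092956-43107587) held 9363, 9620 and 9137 spliced reads in aggregates libraries, against 5267, 5130 and 5188 in diffuse libraries. The summed spliced reads of U2AF1 rose by 0.71 on the log2 scale (SE 0.04, edgeR adjusted p = 2.07e-16) with no overlap. GENCODE 29 places a near-identical copy, U2AF1L5, at chr21:6484623-6499261, and its introns held nearly the same reads, 9360, 9633 and 9125 in aggregates libraries and 5268, 5138 and 5201 in diffuse libraries. The values of either copy are therefore uncertain, and which copy the RNA came from was not tested. Only SNRPD3 and U2AF1 among 51 members had a single intron with more reads than the gene count, as did 203 of 12201 genes (1.66%).

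The LSm proteins LSM2 to LSM8 form a ring on the end of U6 RNA. Of the 7 genes 5 rose and none fell by gene counts, with a median log2 fold change of 0.14, but with GC and length correction LSM2 (-0.10, adjusted p = 0.0087) and LSM4 (-0.02) turned negative. LSM7 (chr19:2321517-2328620) stood apart from the ring. It had 34.4, 34.8 and 29.7 CPM in aggregates libraries, against 21.8, 19.1 and 19.7 CPM in diffuse libraries, a log2 fold change of 0.71 (SE 0.05, edgeR adjusted p = 2.59e-17). LSM2, LSM3, LSM5 and LSM4 had log2 fold changes of 0.18, 0.18, 0.14 and 0.11. By spliced reads LSM2 was at 0.12, and LSM3 did not pass (0.12, adjusted p = 0.0585). LSM7 and LSM5 stood at 0.47 and 0.09 with GC and length correction. LSM4 no longer passed without diffuse replicate 2 or 3 (edgeR adjusted p = 0.0713 and 0.0608). LSM6 had 12.5 ± 1.03 CPM in aggregates libraries and 11.6 ± 0.48 CPM in diffuse libraries and did not pass (adjusted p = 0.136), except without aggregates replicate 2 (log2 fold change 0.17, adjusted p = 0.0215). LSM8 did not pass either, at 49.6 ± 0.90 CPM in aggregates libraries and 50.5 ± 1.43 CPM in diffuse libraries (log2 fold change -0.03, adjusted p = 0.566), while its spliced reads rose by 0.12 (adjusted p = 0.0173).

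The tri-snRNP brings the U6 RNA and the U5 proteins that form the active site. Of its 10 genes 7 rose and 2 fell, around a median log2 fold change of 0.19, though the fall of PRPF38A turned to 0.02 and the rise of SNRNP27 to 0.00 with GC and length correction. PRPF6, the bridge between U5 and U4/U6 (chr20:63981135-64033100), had 121, 124 and 126 CPM in aggregates libraries, against 89.9, 83.3 and 84.9 CPM in diffuse libraries. The rise was 0.52 on the log2 scale (SE 0.04, edgeR adjusted p = 7.13e-24). The U5 proteins EFTUD2, a GTPase, and SNRNP200, the helicase that unwinds U4/U6, rose by 0.39 and 0.36, and SNRNP40 and PRPF8, the scaffold of the active site, by 0.22 and 0.16. With GC and length correction PRPF8 stood at 0.34, SNRNP40 at 0.10 and PRPF31 at 0.18. PRPF31, which stabilises U4/U6, rose by 0.28 and SNRNP27 by 0.13, and SNRNP27 no longer passed without diffuse replicate 2 (adjusted p = 0.0514).

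PRPF3, a U4/U6 protein (chr1:150321476-150353195), showed the largest fall among the 54 by gene counts and by spliced reads, whereas with GC and length correction SNRPD3 (-0.92) lay below it (-0.86). PRPF3 had 56.5, 56.4 and 61.5 CPM in aggregates libraries, against 99.0, 101 and 104 CPM in diffuse libraries. The log2 fold change was -0.80 (SE 0.04, edgeR adjusted p = 1.41e-34), and by spliced reads -0.88. Its partner in U4/U6, PRPF4, did not pass (log2 fold change -0.02, adjusted p = 0.648), with 59.9 ± 2.13 CPM in aggregates libraries and 60.8 ± 0.33 CPM in diffuse libraries. PRPF38A, which joins at activation, fell by 0.17 by gene counts and did not pass by spliced reads (log2 fold change -0.06, adjusted p = 0.403).

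The PRP19 complex steadies the catalytic spliceosome. All 5 of its genes on the member list rose by gene counts, with a median log2 fold change of 0.22. Under GC and length correction BCAS2 (-0.02) and CWC15 (-0.02) turned negative without passing. PRPF19, the ubiquitin ligase that names the complex (chr11:60890730-60906588), had 234, 235 and 222 CPM in aggregates libraries, against 145, 140 and 145 CPM in diffuse libraries. The log2 fold change was 0.69 (SE 0.04, edgeR adjusted p = 1.9e-32). CDC5L, which docks near the active site, rose by 0.63, and PLRG1, BCAS2 and CWC15 by 0.22, 0.19 and 0.15.

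Among the remodelling helicases and catalytic step factors 3 genes rose and 3 fell by gene counts, with a median log2 fold change of -0.05. The median was 0.02 with GC and length correction. By spliced reads it was 0.10 over 5 genes, without CWC22, the largest fall of the group by gene counts. The spliced and gene-count medians therefore do not cover the same genes. DHX16, which launches the first step (chr6:30653119-30673037), had 60.5, 64.9 and 60.2 CPM in aggregates libraries, against 50.3, 45.1 and 46.6 CPM in diffuse libraries. It rose by 0.39 on the log2 scale (SE 0.04, edgeR adjusted p = 5.53e-14). CWC22, which brings the exon junction complex protein EIF4A3 to the spliceosome (chr2:179944876-180007113), had 43.4, 42.9 and 47.6 CPM in aggregates libraries, against 63.9, 69.1 and 68.9 CPM in diffuse libraries. It fell by 0.59 on the log2 scale (SE 0.04, edgeR adjusted p = 3.17e-23) with no overlap. SLU7, needed for the second step, fell by 0.48, and DHX38, the helicase between the steps, by 0.17. With GC and length correction DHX38 stood at -0.10, and by spliced reads DHX38 was at -0.27 and DHX16 at 0.23. DHX8, which releases the mRNA, rose by 0.14 by gene counts and by 0.32 with GC and length correction, but did not pass by spliced reads (0.10, adjusted p = 0.217). DHX15, which takes the spent spliceosome apart, was close to the threshold, with a log2 fold change of 0.08 (edgeR adjusted p = 0.0377), or 0.14 with GC and length correction and 0.10 by spliced reads (adjusted p = 0.0943). It no longer passed without aggregates replicate 1 or 3 or diffuse replicate 1 or 3 (adjusted p = 0.0843, 0.0843, 0.241 and 0.0547).

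**Figure D3:**
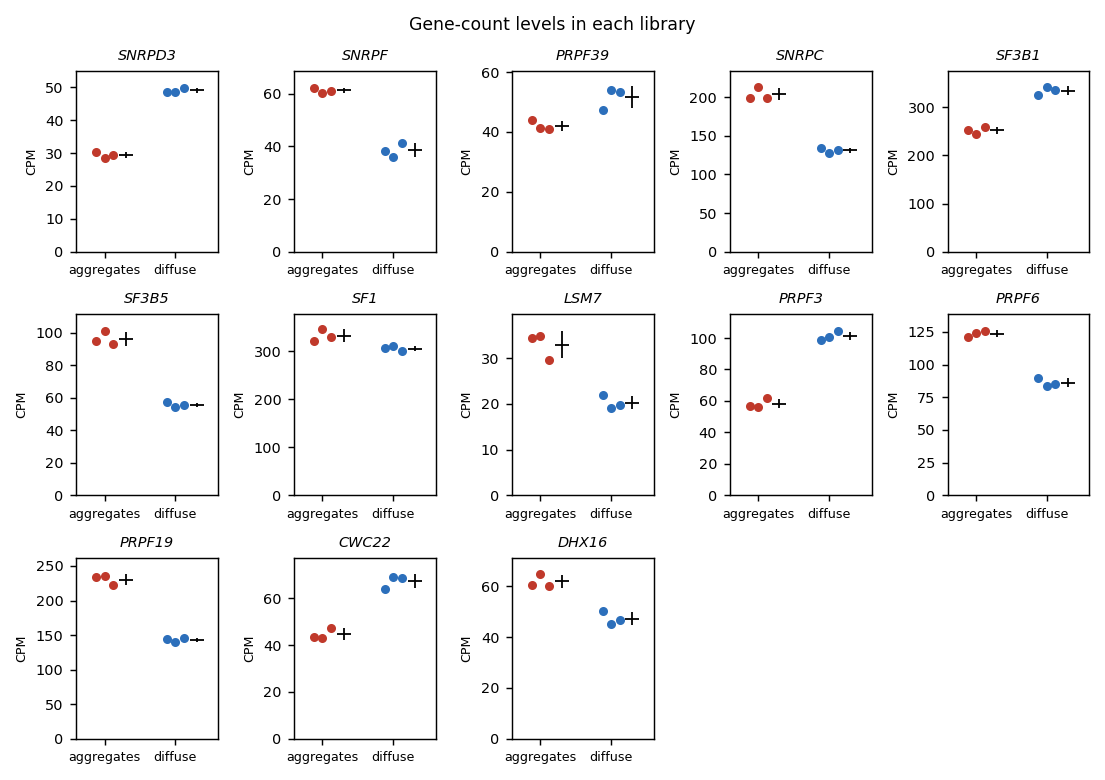
Gene-count levels, in CPM, of the core spliceosome genes with the largest rise and the largest fall of each role group; points are libraries, bars are mean ± SD over 3 libraries, and all axes start at 0. Aggregates and diffuse libraries do not overlap in any panel, but these genes were picked by the size of their change. Groups also did not overlap for 76.2% of all genes tested, and for 86.4% of those in the expression range of the members other than U2AF1. The gap is narrowest relative to the level in SF1 (321 to 347 CPM in aggregates libraries, 300 to 311 CPM in diffuse libraries).

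Spliced reads gave a second reading of the same libraries, limited to the introns summed for each gene. These ranged from 1 intron in SF3A2 and LSM3 to 17 introns in SF1, so the sums are not whole-gene levels. The sums take annotated introns that belong to a single gene and measure 51 of the 54 genes, leaving out SF3B5, SNRNP27 and CWC22. By summed spliced reads 36 of the 51 rose and 5 fell, where 34.4% of the 11690 genes tested that way rose and 34.4% fell. The median log2 fold change was 0.19. Of 39 members that passed by both measures 38 had the same sign, and SNRPD3 was the other. Both measures draw on the same sequenced reads, so likeness in sign and size is partly built in. Over the 50 members other than U2AF1 the log2 fold changes by spliced reads and by gene counts had a Pearson r of 0.84 and a Spearman rho of 0.88, across genes measured in the same libraries.

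Reads of other loci may enter some counts. Exons of 18 members overlap exons of a gene on the other strand, and whether the counting used the strand of the stranded kit is not given in the sources used here. Members with many named pseudogenes in GENCODE 29 include SNRPG with 20, SNRPC with 18 and SNRPE with 9, so their gene counts are uncertain to that extent.

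In 5 other lists of splicing machinery genes, too, more genes rose than fell. The 94 genes of these lists had 54 that rose (57.4%) and 23 that fell (24.5%), at a median log2 fold change of 0.17, where 37.8% and 37.6% of all genes did so. In snRNP assembly and recycling, the pathway by which the SMN complex loads Sm rings, 14 of 20 genes rose and 4 fell, with a median of 0.48. SMN1 had 7.61 ± 0.46 CPM in aggregates libraries and 3.85 ± 0.45 CPM in diffuse libraries, a log2 fold change of 0.98, although reads of the near-identical SMN2 make this value uncertain. RIOK1, an adaptor of the PRMT5 methyltransferase that modifies Sm proteins, had 14.8 ± 0.40 CPM in aggregates libraries and 8.02 ± 0.12 CPM in diffuse libraries. COIL, the scaffold protein of Cajal bodies where snRNPs mature, fell, with 36.9 ± 0.76 CPM in aggregates libraries and 50.2 ± 1.11 CPM in diffuse libraries, and SNUPN, the import adaptor for snRNPs, fell by 0.30 on the log2 scale.

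In the minor spliceosome, which removes the rare U12-type introns, 7 of 12 genes rose and 3 fell, with a median of 0.28. PDCD7 rose by 0.67 and ZMAT5 by 0.62, while SNRNP48 fell by 0.66 and ARMC7 by 0.27. Of the 5 exon junction complex genes 3 rose and 1 fell, with a median of 0.14. EIF4A3, its RNA-clamping helicase, had 111 ± 1.73 CPM in aggregates libraries and 66.6 ± 0.87 CPM in diffuse libraries, a log2 fold change of 0.74. MAGOHB rose by 0.17, and CASC3 fell by 0.08 (edgeR adjusted p = 0.0329), a call lost without aggregates replicate 1 or diffuse replicate 1 or 3 (adjusted p = 0.222, 0.055 and 0.0551).

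Of the 8 other Sm and LSm genes 4 rose and 3 fell, with a median of 0.14. The U7 snRNP proteins LSM10 and LSM11, which work together in histone mRNA processing, moved in opposite directions. LSM10 had 31.9 ± 1.91 CPM in aggregates libraries and 17.6 ± 0.93 CPM in diffuse libraries, whereas LSM11 had 16.6 ± 0.53 CPM in aggregates libraries and 29.5 ± 0.28 CPM in diffuse libraries. LSM12 rose by 0.42 and SNRPN fell by 0.36. Of 49 other spliceosome factors 26 rose and 12 fell, with a median of 0.12. PPIL1, a peptidyl-prolyl isomerase, and PHF5A, an SF3B subunit, rose by 0.59 and 0.55, while LUC7L and LUC7L3, which influence 5′ splice site choice with U1, fell by 0.69 and 0.65.

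**Figure D4:**
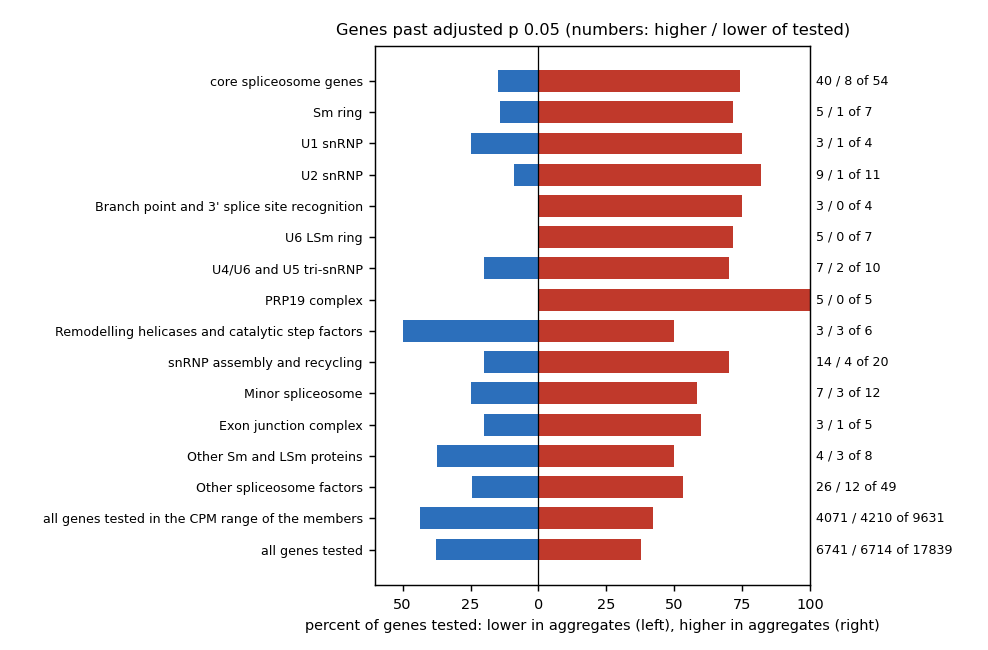
Share of genes past an adjusted p of 0.05 by gene counts, lower in aggregates to the left and higher to the right, for the core spliceosome genes, their 8 role groups, 5 other splicing machinery lists and all genes tested. The core genes reach 74.1% higher and 14.8% lower, beside 37.8% and 37.6% of all genes tested, and the helicases and catalytic step factors are split 3 to 3. With GC and length correction the core genes are 35 higher and 9 lower, where 13281 of 17435 genes changed in either direction.

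The intron table also shows how the RNA of the spliceosome genes was itself spliced. LeafCutter, the program that made it, puts introns with a common splice site into 1 cluster, and the percent use of an intron is its share of the reads of its cluster. Of 152 clusters tested in 52 members, 16 changed (10.5%), where 5.02% of all 35898 clusters changed (edgeR diffSpliceDGE, Simes method per cluster, adjusted over all clusters). The p of a cluster does not say which of its introns changed, so below an intron is said to rise or fall only where it passed on its own, and the others are given as values. The 16 lie in 13 genes, 25% of the 52, where 14.0% of genes with a tested cluster had a changed one. Member clusters were read more deeply than most, with a median of 5194 reads over the 6 libraries against 1635 over all clusters. Among clusters with at least as many reads as that member median, 15.8% of the 76 member clusters and 11.8% of all 6812 changed. The moves were small, since no intron of a member cluster that changed moved by 10 points of percent use and 4 of the 16 clusters had one moving by 5 points, where 501 of the 1802 changed clusters of all genes reached 10 points.

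The introns that changed in member genes were mostly ones outside the usual protein-coding transcripts, and mostly used less in aggregate cells. Of 543 introns tested in member genes, 4 rose and 20 fell relative to their cluster, where 0.614% of all introns rose and 1.44% fell. Among 61 introns annotated only outside protein-coding transcripts 1 rose and 8 fell (13.1% fell), where 0.803% of that class rose and 3.1% fell over all genes. Among 28 of these that belong to nonsense-mediated decay transcripts none rose and 4 fell, where 0.572% of the class rose and 4.37% fell. Of 199 unannotated introns 2 rose and 9 fell, where 0.604% and 1.42% of the class did, and of 283 introns of protein-coding transcripts 1 rose and 3 fell, where 0.575% and 1.05% did. These classes of introns were chosen after their values were seen. The shares over all genes are not matched for the deeper reads of the member clusters. Exons and introns described below were picked from clusters that changed on these same reads. Groups without overlap are therefore likely among them, and the share without overlap over all genes was not counted.

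The stop-containing exons of SF3B3 and SNRPB, printed above, were both included less in aggregate cells. Inclusion of the SF3B3 exon, taken from the average reads of the introns on its sides as a share of that average and the reads that skip it, was 1.68, 2.51 and 2.10% in aggregates libraries, against 7.19, 6.99 and 5.50% in diffuse libraries. No aggregates library reached the lowest diffuse library. Of its cluster (edgeR cluster adjusted p = 2.26e-05) the introns on both sides of the exon fell, the one entering it to 1.91 ± 0.60% in aggregates libraries, against 6.34 ± 1.10% in diffuse libraries. The protein-coding intron that skips the exon was used at 95.6 ± 0.94% in aggregates libraries and 87.4 ± 1.48% in diffuse libraries, with no overlap, and did not pass on its own (edgeR adjusted p = 0.758). Inclusion of the SNRPB exon was 0.40, 0.63 and 0.58% in aggregates libraries, against 1.16, 1.35 and 1.24% in diffuse libraries (edgeR cluster adjusted p = 0.0013). SmB, the product of SNRPB, is known to influence the inclusion of this kind of exon in its own transcript.

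In U2AF1 the intron that joins the first of the alternative exons to the second, annotated both in a protein-coding and in a nonsense-mediated decay transcript, was used less. Its percent use was 3.02, 3.18 and 3.15% in aggregates libraries, against 8.04, 8.66 and 8.63% in diffuse libraries, the largest fall of its cluster (edgeR cluster adjusted p = 1.45e-14). The groups were far apart relative to their spread. The intron leading straight to the second exon was used at 31.4 ± 0.69% in aggregates libraries and 27.1 ± 0.45% in diffuse libraries, without overlap, and did not pass on its own (edgeR adjusted p = 0.197). The intron leaving the first exon for the exon after the pair rose, at 14.6 ± 0.53% in aggregates libraries and 11.3 ± 0.79% in diffuse libraries. An unannotated intron that skips both exons had no read in any aggregates library and 6, 7 and 8 reads in diffuse libraries. All of these reads carry the uncertainty between U2AF1 and U2AF1L5 given above.

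Exons belonging to the protein-coding transcripts of SNRPA1, BCAS2 and SNRPC were skipped less often in aggregate cells. Inclusion of the SNRPA1 80-base exon was 91.9, 89.7 and 88.2% in aggregates libraries, against 77.5, 76.5 and 80.4% in diffuse libraries. The intron skipping it, annotated in a nonsense-mediated decay transcript and in no protein-coding one, fell, at 5.32 ± 1.03% in aggregates libraries and 12.3 ± 1.26% in diffuse libraries. The intron entering it was used at 50.6 ± 1.55% in aggregates libraries and 44.2 ± 1.92% in diffuse libraries and did not pass on its own (edgeR adjusted p = 0.39, against 7.6e-08 for the cluster). For BCAS2 the 71-base exon was included at 97.3, 96.3 and 97.1% in aggregates libraries, against 86.7, 86.9 and 89.9% in diffuse libraries (edgeR cluster adjusted p = 4.73e-12). Its skipping intron fell, at 1.04 ± 0.19% in aggregates libraries and 4.37 ± 0.64% in diffuse libraries. The intron after the next exon, chr1:114570751-114575589, was at 33.5 ± 1.17% in aggregates libraries and 31.7 ± 2.42% in diffuse libraries, with overlapping groups, and did not pass on its own. The SNRPC 43-base exon, next to the start codon, was included at 99.3, 99.3 and 98.7% in aggregates libraries, against 97.4, 96.2 and 97.5% in diffuse libraries (edgeR cluster adjusted p = 1.5e-05). The inclusion values of the 3 exons, from clusters picked because they changed, did not overlap between the groups.

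**Figure D5:**
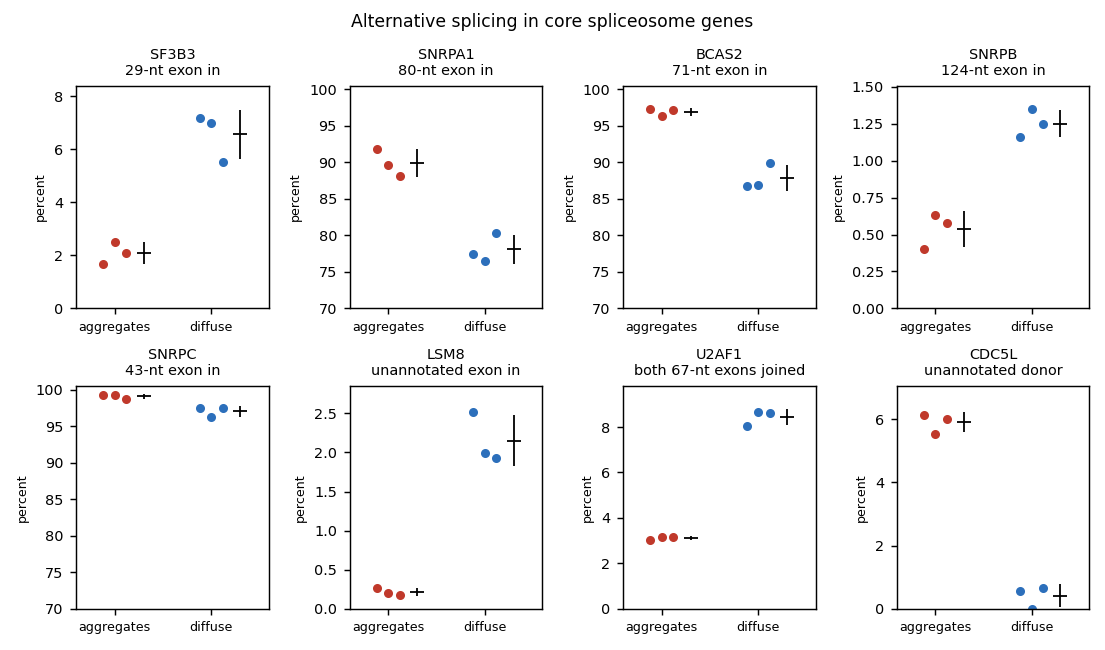
Splicing of core spliceosome genes in each library, as percent inclusion of an exon or, for U2AF1 and CDC5L, percent use of an intron within its cluster; points are libraries, bars are mean ± SD over 3 libraries, and the SNRPA1, BCAS2 and SNRPC axes start at 70%. The stop-containing exons of SF3B3 and SNRPB are lower in aggregates libraries, at means of 2.10 and 0.54% there and 6.56 and 1.25% in diffuse libraries. The SNRPA1, BCAS2 and SNRPC exons are higher, and the CDC5L donor is at 5.90% in aggregates libraries and 0.41% in diffuse libraries.

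CDC5L was the member with unannotated splice sites used more in aggregate cells. An intron at chr6:44388426-44390267, whose donor lies 557 bases inside the first intron of the cluster, had 40, 37 and 40 reads in aggregates libraries, against 2, 0 and 3 reads in diffuse libraries. That is 5.90 ± 0.32% use in aggregates libraries and 0.41 ± 0.36% in diffuse libraries (edgeR cluster adjusted p = 1.01e-06). The protein-coding intron with the same acceptor was at 92.0, 93.3 and 91.3% in aggregates libraries, against 97.5, 98.6 and 97.3% in diffuse libraries, and did not pass on its own. In the following intron a second unannotated donor, 1453 bases inside it, was used at 3.24 ± 0.72% in aggregates libraries and 0.42 ± 0.42% in diffuse libraries. The protein-coding intron there was used at 95.5 ± 0.77% in aggregates libraries and 99.4 ± 0.45% in diffuse libraries and did not pass on its own (edgeR cluster adjusted p = 0.0027). Without diffuse replicate 1 this second cluster no longer passed (adjusted p = 0.0547).

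In other members some minor splice choices were used less in aggregate cells. In LSM8 an unannotated exon of 213 bases (chr7:118190818-118191030) was included at 0.27, 0.20 and 0.17% in aggregates libraries, against 2.52, 2.00 and 1.92% in diffuse libraries (edgeR cluster adjusted p = 6.75e-07). The intron entering it dropped to 0.20 ± 0.14% in aggregates libraries, against 2.63 ± 0.93% in diffuse libraries, and the protein-coding intron stood at 99.1 ± 0.38% in aggregates libraries and 95.2 ± 0.82% in diffuse libraries. In DHX15 an unannotated acceptor 8 bases beyond the annotated one was used at 0.76 ± 0.21% in aggregates libraries and 4.82 ± 1.08% in diffuse libraries. The annotated intron was at 99.2 ± 0.21% in aggregates libraries and 94.5 ± 1.66% in diffuse libraries (edgeR cluster adjusted p = 0.000303). In CWC15 an intron with its donor 225 bases inside the usual intron, annotated only outside protein-coding transcripts, was used at 1.22 ± 0.13% in aggregates libraries and 5.73 ± 1.24% in diffuse libraries. The usual intron was at 96.8 ± 0.67% in aggregates libraries and 92.9 ± 0.76% in diffuse libraries (edgeR cluster adjusted p = 0.000937). These LSM8, DHX15 and CWC15 values, from clusters picked because they changed, did not overlap between the groups. Of the introns given, the minor ones passed on their own and the protein-coding ones did not.

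The remaining named changes were less firm. Their largest moves in percent use were 3.21 points in PRPF3, 2.02 in SF1 and 1.99 in SNRPE. The SNRPB and SNRPC clusters given above moved less, by at most 1.40 and 1.05 points. In PRPF3 the intron from an unannotated donor 10 bases from the annotated one fell, at 0.26 ± 0.15% in aggregates libraries and 1.34 ± 0.17% in diffuse libraries. It was the intron of its cluster that passed (edgeR cluster adjusted p = 0.0173). The annotated intron was at 35.6 ± 0.55% in aggregates libraries and 32.4 ± 1.09% in diffuse libraries and did not pass on its own (edgeR adjusted p = 0.853), nor did the intron at chr1:150344548-150346017, at 31.0 ± 2.28% in aggregates libraries and 32.5 ± 0.69% in diffuse libraries, with overlapping groups. In SF1 an intron skipping a 76-base exon fell, at 1.73 ± 0.57% in aggregates libraries and 2.98 ± 0.65% in diffuse libraries. The intron leaving that exon was at 41.2 ± 1.14% in aggregates libraries and 39.2 ± 1.70% in diffuse libraries, with overlapping groups, and did not pass on its own (edgeR cluster adjusted p = 0.0471). In SNRPE an intron at chr1:203861744-203862181, annotated only outside protein-coding transcripts, fell, at 0.96 ± 0.09% in aggregates libraries and 1.58 ± 0.11% in diffuse libraries. It was the intron of its cluster that passed (edgeR cluster adjusted p = 0.0148). The protein-coding intron at chr1:203862223-203863662 was used at 31.3 ± 0.28% in aggregates libraries and 29.3 ± 0.43% in diffuse libraries and did not pass on its own (edgeR adjusted p = 0.856). Nor did the intron at chr1:203865120-203869876, with 36.0 ± 0.30% in aggregates libraries and 37.0 ± 0.25% in diffuse libraries. Each of these clusters lost its call without some of the libraries. PRPF3 gave edgeR adjusted p = 0.171, 0.0627, 0.0544 and 0.138 without aggregates replicate 1 or 3 or diffuse replicate 1 or 2. SNRPE gave 0.0825, 0.176, 0.105 and 0.122 without aggregates replicate 1 or 3 or diffuse replicate 1 or 3. SF1 gave 0.0547 to 0.549 without aggregates replicate 1 or 2 or any 1 diffuse replicate, and 0.146 by a cluster F test. A second cluster each in BCAS2 (adjusted p = 0.0137) and SNRPA1 (adjusted p = 0.0316) passed as well, with introns moving by at most 1.82 and 1.49 points, and each lost its call without some of the libraries.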

How the data were processed

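Libraries were made from polyA RNA with the Illumina stranded mRNA kit, per the labels' protocols. Reads passed through fastp 0.23.2 and STAR 2.7.11a on hg38, per the submitters' processing notes. The deposited values are whole-number counts that the authors did not normalize, per gene (36601 rows) and per LeafCutter intron (153462 introns in 39496 clusters). Which program counted the genes, with which annotation and strand setting, and the version of LeafCutter were not given in the sources used here. Every row carries a gene name, and 10 names are given to more than 1 row.

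Gene counts were fitted in R 4.3.3 with edgeR 4.0.16 (filterByExpr, TMM scaling, robust quasi-likelihood test, group as the only term) on all 6 libraries, and p-values were adjusted over all 17839 genes tested. CPM, the scaled count behind each printed gene level, uses the TMM-scaled library size. The marker sums and the worth of a single read use the library total without TMM scaling. Intron clusters with at least 2 introns of 10 or more counts, and at least 10 counts in every library, were tested with diffSpliceDGE. Spliced reads over annotated introns that belong to a single gene were also summed per gene and fitted in the same way. Introns were matched to GENCODE 29 on hg38, where 95517 are annotated, and unannotated means absent from that annotation. The scripts were tested on simulated counts. A single read was worth 0.0213 to 0.0248 CPM, and the biological coefficient of variation was 3.08%.

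In each role group the largest rise and the largest fall past 0.05 with a mean of at least 5 CPM get values in every library. Of each other list the 2 largest rises and the 2 largest falls are named, and of changed clusters the 12 with the largest move in percent use; SNRPB, SNRPC and the second clusters of BCAS2 and SNRPA1 complete the 16. Members and lists were chosen with earlier results of these data known. Alternatives were DESeq2 1.42.0, its size factors, no filter, a minimum fold of 1.2, GC and length offsets, the replicate number as a block, spliced reads, and leaving out each library. Protein sequences and intron sequences were not used here. One of the marker lists is not reported here.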

Additional observations from a re-analysis of the deposited data

How the results depend on the processing

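With DESeq2, its size factors, no filter on low counts or GC and length correction, 44 to 47 of the 54 core spliceosome genes were called, beside 48 in the report. The genes entering these fits differ. In all, 12304 of 36601 rows were called with DESeq2 and 13459 of 17839 genes with its size factors. Without the filter 14048 of 29836 were called, and with GC and length correction 13281 of 17435, beside 13455 of 17839 in the report. Against a minimum fold of 1.2, 24 members passed (19 higher, 5 lower) and 49 genes of the other lists, beside 77. Spliced reads summed per gene called 5 members lower and 8036 of all 11690 genes. Leaving out 1 library at a time gave 44 to 48 members (36 to 40 higher, 8 lower), with a median log2 fold change of 0.15 (without diffuse replicate 2) to 0.19. The same fits called 12943 to 13310 genes in all and 75 to 76 genes of the other lists. Member clusters called were 11 to 14 beside 16, and clusters of all genes 1171 to 1318 beside 1802. Signs turned with GC and length correction, without and with the replicate block, for SNRPB (-0.10 and -0.10), SF3A2 (-0.0532 and -0.0538), LSM2 (-0.10 and -0.10), LSM4 (-0.0209 and -0.0208), LSM8 (0.12 and 0.12), PRPF38A (0.0187 and 0.0189), BCAS2 (-0.0210 and -0.0204) and CWC15 (-0.0242 and -0.0237). Spliced reads turned SNRPD3 (0.49), U2AF1 (0.71), LSM8 (0.12), SF3A2 (-0.01) and TARDBP (0.48). Of members not called, SF3A2 turned without aggregates replicate 2 or diffuse replicate 2 or 3, and PRPF4 without aggregates replicate 1 (0.01). The cause was not tested.

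The replicate numbers share no stated origin. Same-numbered aggregates and diffuse libraries deviated together with correlations of 0.04, 0.08 and 0.06, and each library correlated best with its own number, which is a hint from the data and not from the design. With the replicate number as a block 48 members were called (40 higher, 8 lower), with a median of 0.18, and 13530 genes in all. The block gave 16 member clusters, 15 of them the same, and the second SNRPA1 cluster no longer passed (edgeR adjusted p = 0.0952). Over all genes the block called 1494 clusters, beside 1802 without it. Low counts limit the minor splice choices, several of which rest on fewer than 10 reads in some libraries.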
